A study of Mus musculus with 42 samples.

Results

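The genes described here were the 37 genes that encode the mouse proteasome, its assembly factors and 1 of its activators. They were chosen by name from the symbols of the RNA-seq files, and in the 3′READS files by the polyadenylation sites (PASs) that lay inside each gene or up to 4 kb past its end on the same strand, before the next gene. All 37 were found in both kinds of data, among 12347 protein-coding genes in RNA-seq and 13433 in 3′READS, and 153 PAS clusters were assigned to them of 61071 assigned to genes in all. No measured value entered this rule, though the list was made with earlier results of these data known.

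The series held 42 libraries from NIH3T3 cells, a mouse embryonic fibroblast line, and C2C12 cells, a mouse myoblast line that fuses into myotubes. Cells were left untreated (NT), exposed to 250 μM sodium arsenite for 1 h (AS), or exposed in the same way and then left to recover in fresh medium for 4, 8, 12 or 24 h (named RC4, RC8, RC12, RC24). Total RNA of NIH3T3 cells was sequenced by RNA-seq (2 NT, 1 AS and 1 RC4 library) and by 3′READS, which reads the 3′ ends of polyadenylated RNA (3 NT, 3 AS and 1 library at each recovery time). In another NIH3T3 experiment, 50 μM 4-thiouridine (4sU) was given for the 1 h before harvest. RNA was split into a 4sU fraction of newly made RNA and a flow-through (Ft) of pre-existing RNA (each with 2 NT, 1 AS and 1 RC4 library). Pre-existing means made before the label, so Ft at RC4 can also hold RNA made earlier in recovery. Cytoplasmic lysates of NT and AS NIH3T3 cells gave 2 input and 2 TIA1 immunoprecipitate libraries per condition, TIA1 being an RNA-binding protein of stress granules. Cytoplasmic RNA of proliferating C2C12 myoblasts (MB) and differentiated myotubes (MT) was sequenced after NT, AS and RC4 (2, 1 and 1 library each), and total RNA of untreated MB and MT cells in 2 libraries each. By the study's methods both lines came from ATCC, and no genetic modification of the sequenced cells is described. The NT groups pooled libraries labelled 0 h and 4 h, and most treated groups were 1 library, which was assumed to vary like the replicated groups of its fit. In RNA-seq that spread came from the 2 NT libraries alone, with 1 residual degree of freedom, so its SEs and p-values do not measure how RC4 varies. The study calls replicates biological for arsenite in total RNA, for the TIA1 data and for its comparison of MB with MT cells. No label tied replicates to separate cultures, so p-values measure the spread between these libraries, which may be technical in the other groups.

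The 26S proteasome degrades proteins tagged with ubiquitin. Its 20S core is a barrel of stacked rings, with outer rings of alpha subunits (Psma genes) that gate the entrance and inner rings of beta subunits (Psmb genes) that hold the protease sites. The 19S cap that sits on the core has a base and a lid. The ATPases of the base (Psmc genes) unfold the substrate. The base also holds the scaffolds Psmd1 and Psmd2 and the ubiquitin receptors Psmd4 and Adrm1, together also called scaffold genes below. The lid has Psmd3, Psmd6 to Psmd8 and Psmd11 to Psmd14, of which Psmd14 removes the ubiquitin chain. Pomp helps the core mature, Psmd5, Psmd9 and Psmd10 are chaperones of the base, and Psme4 encodes the alternative cap PA200. When proteasome activity falls, the transcription factor NRF1 (Nfe2l1), cleaved by the protease DDI2, is known to raise proteasome genes through antioxidant response elements in their promoters, the same DNA element that NRF2 (Nfe2l2) uses. Arsenite binds thiols and damages proteins, which adds to the load on this machinery.

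The promoters were searched for that element because the response of these genes is usually discussed through it. RefSeq promoter windows on GRCm38.p6, from 250 bases before to 50 bases after a transcript start, matched 31 of the 37 genes. Psmb1, Psmb2, Psmb7, Psmc3, Psmd3 and Psmd7 had no entry. The core letters TGACNNNGC, searched on both strands, stood in the windows of 7 of the 31 members (22.6%), beside 14% of 27025 genes. The heat shock element core GAANNTTC stood in 1 member, Psmb5 (3.2%, beside 9.0% of all genes), and the NF-Y box CCAAT in 12 members (38.7%, beside 41.1%). None of the printed stretches holds another of these motifs. Stretches with the antioxidant element core from 6 members are printed below in gene orientation, with the matched letters in capitals.

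Psmb5: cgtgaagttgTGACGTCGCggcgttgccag
Psmb6: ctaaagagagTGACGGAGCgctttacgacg
Psmc6: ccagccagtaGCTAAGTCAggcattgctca
Psmd12: tctGCTGTGTCAcatttgcccccctcagac
Psmd9: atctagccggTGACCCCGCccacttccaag
Psme4: cgctgcggctGCAGCGTCAccagaagagcc

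The Psmb6 stretch lies at chr11:70525338-70525367 on the plus strand, with the match starting 9 bases before the transcript start. The Psmb5 stretch lies at chr14:54618023-54618052 on the minus strand, with the match starting 47 bases before the start. A match of these letters is a description of the window and was not tied to binding of any factor.

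The 3′ ends of the members were mostly simple. The most used PAS of each of the 37 genes had the signal AATAAA (33 genes) or ATTAAA (4 genes) within 45 nt upstream, with a median start 22 nt upstream and with 32 of the 37 starts between 15 and 30 nt. Among the 33 members with at least 1000 3′READS reads, the most used PAS held a median of 99.2% of a gene's reads, beside 91.4% for all 8204 genes at that depth. In 23 of the 33 (69.7%) only 1 PAS held 5% or more of the reads, beside 48.3% of all these genes. Isoform choice could therefore be measured in few members, and the pairs of sites of Psmd8, Psmd11 and Psmb1 are printed because the results below turn on them. Each line gives the 30 bases up to the proximal (pPAS) or distal (dPAS) site of the mm9 genome, in gene orientation, with the signal in capitals.

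Psmd8 pPAS: ggccttcAATAAAggcagattaacctctaa
Psmd8 dPAS: gccctctgtAATAAAtggtatgaatcctga
Psmd11 pPAS: ttggtAATAAAtttctattttgtaaaagga
Psmd11 dPAS: gttccAATAAAataattttttttttcaaaa
Psmb1 pPAS: agtttgttttATTAAAaagaatgtaaagta
Psmb1 dPAS: atgtaatgaaaAATAAAaccactaatataa

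The Psmd8 sites lie at chr7:29959548-29959577 (proximal) and chr7:29959206-29959235 (distal) on the minus strand, and the Psmd11 sites at chr11:80286498-80286527 and chr11:80286721-80286750 on the plus strand. The Psmb1 sites lie at chr17:15612923-15612952 and chr17:15612681-15612710 on the minus strand. All 6 are in the annotated last exons or past them. The dPAS stretch of Psmd11 carries a run of Ts after its signal.

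Depth and cell identity set the limits of what follows. The RNA-seq libraries held 17137579 to 25194062 counted reads, and the 3′READS libraries 1048335 to 6974664. NIH3T3 3′READS libraries listed all 6 fibroblast markers of the list used and none of the myoblast markers Des, Myf5, Myod1 and Pax7. They also listed 6 of the 8 myotube markers, with a summed level of 0.0 to 21.4 RPM. MT libraries listed all 8, with a summed level of 11904 to 23424 RPM against 76.7 to 259.7 RPM in MB libraries. NIH3T3 RNA-seq listed 5 of the 8, at 71.7 to 179.3 RPM. The listed myoblast markers summed to a median of 87.1 RPM in MB (67.2 to 162.5) and were higher in MT, at 235.4 RPM (158.0 to 682.7). Of 6 epithelial and leukocyte markers, only Cd68 was listed in 3′READS, while Cdh1, Epcam, Krt8, Krt18 and Ptprc were not. In RNA-seq 4 of the 6 were listed, without Krt18 and Ptprc. The fibroblast marker Thy1 and the myoblast marker Pax7 were not listed in C2C12 cells. The myoblast marker Cdh15 could not be counted in any 3′READS library, because its PASs also lay in another gene and were left out. Total RNA replicates of NIH3T3 cells stood apart by replicate number. Their log2 counts correlated across genes with r of 0.70 to 0.82 between numbers of 1 group, beside 0.99 for the RNA-seq NT pair, so that series was also fitted with the number as a block.

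In untreated cells the members spanned a wide range. 3′READS gives 1 read per RNA 3′ end whatever the length of the RNA, so levels are given as RPM (a gene's reads scaled to a common library total). How well each gene's 3′ end was captured was not tested, so the order of genes is that of captured ends. Over the 13 untreated input, cytoplasmic and total libraries, the median level was highest for Psmb4, a beta-ring subunit, at 724.9 RPM (lowest 323.7, highest 1143.7). Psmb6, which carries a protease site, followed at 697.3 RPM (141.9 to 1074.4), and the alpha subunit Psma6 at 656.9 RPM (271.0 to 2522.2). These neighbours overlapped over most of their ranges, and their order differed between libraries. The ATPase gene Psmc3 had a median of 600.1 RPM and the scaffold gene Psmd2 of 570.9 RPM. At the low end, Psma5 had 23.4 RPM and Psmd1 23.2 RPM (8.4 to 277.8). Over the 7 members of the alpha ring the medians ran from 23.4 to 656.9 RPM.

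The genes Psmc2, Psmb7, Psmb5 and Adrm1, had medians of 3.7, 2.4, 1.3 and 0 RPM in 3′READS. Adrm1 was nonetheless among the well covered members of RNA-seq, with 3626, 3442, 4015 and 7642 reads in the 2 NT, the AS and the RC4 library. Psmc2 had 4742, 4348, 5738 and 9982 reads there. The small 3′READS counts of these genes were below the read filter in most of those fits, and the cause was not tested. For that reason these genes were tested in RNA-seq and in few or none of the 3′READS comparisons.

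At 4 h of recovery, RNA-seq showed a rise of most proteasome genes relative to the other genes of the cell. Of the 37 members, 27 rose, 2 fell and 8 were not called, by edgeR's quasi-likelihood test with Benjamini-Hochberg adjusted p under 0.05 over all 10814 genes tested. Of all genes, 27.6% were called higher and 24.3% lower. The median log2 fold change of the members was 0.64, and it was −0.01 over all genes. Counted by role, all 6 base ATPases and all 4 scaffold and ubiquitin receptor genes rose, as did 6 of 7 beta subunits, 6 of 8 lid subunits and 5 of 7 alpha subunits, whereas none of the 4 assembly factors did. Of the epithelial and leukocyte markers, Cd68 was at 7.14 and 5.15 RPM in NT, 9.20 RPM in AS and 37.2 RPM in RC4 (log2 fold change 2.59 ± 0.25, called higher). Krt8 had 65 reads in RC4 and none listed in the other libraries, and Cdh1 and Epcam had at most 10 reads in any library. The part of these markers in the result was not tested.

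**Figure D1:**
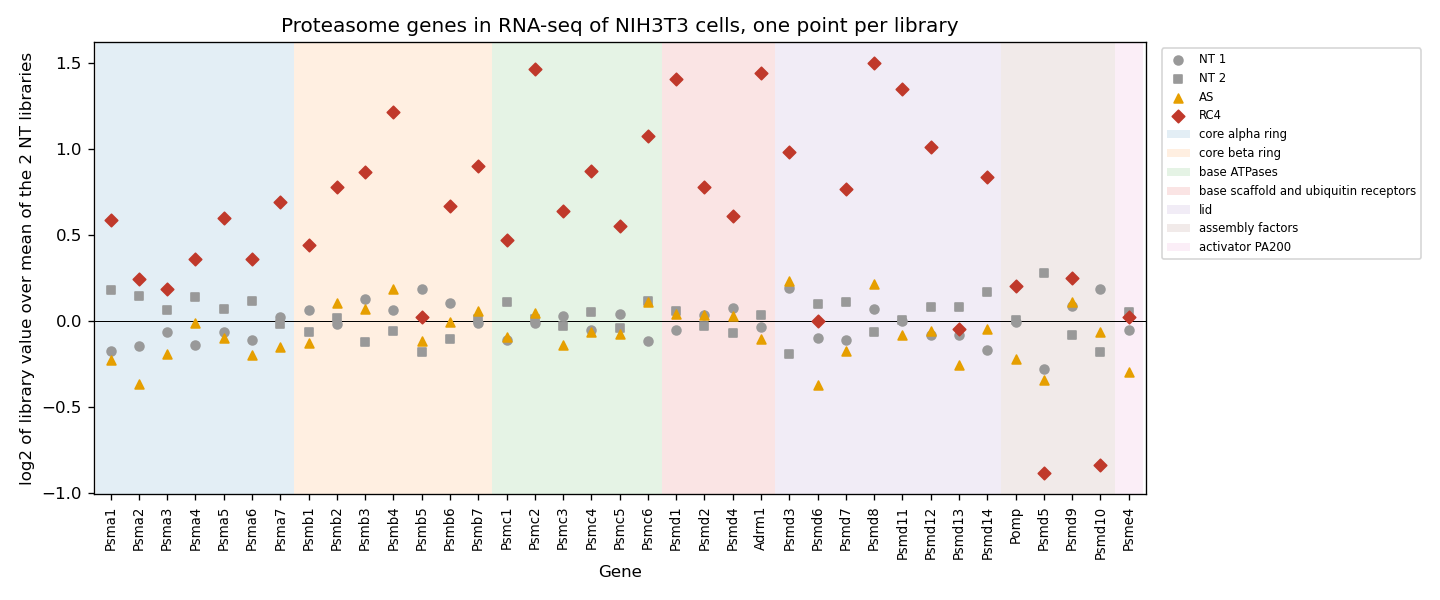
RNA-seq value of each of the 37 genes in each library, as log2 over the mean of the 2 NT libraries (y axis), with genes on the x axis grouped by role (shading); grey circles and squares are the NT libraries, triangles AS and diamonds RC4. The RC4 diamonds stand above both NT points for most core, base and lid genes and below them for Psmd5 and Psmd10.

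The gene that rose most was Psmd8, a subunit of the lid. Its normalised level was 53.3 and 48.6 RPM in NT, 59.2 RPM in AS and 143.8 RPM in RC4 (RPM scaled by median-ratio factors). The RC4 library lay far above the other 3, and the log2 fold change over NT was 1.50 ± 0.16 (SE; adjusted p = 9.14e-11, edgeR). Psmc2, an ATPase of the base ring, was at 215.8 and 219.3 RPM in NT, 224.5 RPM in AS and 599.4 RPM in RC4. Its log2 fold change was 1.46 ± 0.14 (adjusted p = 4.53e-12, edgeR). Adrm1, the ubiquitin receptor also known as RPN13, went from 165.0 and 173.6 RPM in NT to 458.9 RPM in RC4, with 157.1 RPM in AS, a log2 fold change of 1.44 ± 0.14 (adjusted p = 1.2e-11, edgeR). In none of these 3 genes did the RC4 value come near the range of the NT pair.

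The next largest changes joined the base and the lid. Psmd1, the large scaffold of the base, rose by 1.40 on the log2 scale, Psmd11, a lid subunit, by 1.35. The beta subunit Psmb4 was the most changed core gene, with 373.3 and 343.3 RPM in NT, 407.7 RPM in AS and 828.8 RPM in RC4, a log2 fold change of 1.21. The alpha ring moved least of the core and cap groups. Its 5 called genes had log2 fold changes from 0.35 (Psma6 and Psma4) to 0.69 (Psma7), whereas Psma2 (0.24) and Psma3 (0.18) were not called. Over the 7 alpha genes the median was 0.36, beside 0.78 for the beta ring, 0.76 for the ATPases, 0.90 for the lid and 1.09 for the scaffold genes. These differences between rings were not tested.

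Both genes that fell encode chaperones of the base. Psmd5 was at 59.8 and 88.2 RPM in NT, 57.2 RPM in AS and 39.3 RPM in RC4, with a log2 fold change of −0.91 ± 0.20 (adjusted p = 0.000148, edgeR). Psmd10, also known as gankyrin, was at 21.5 and 16.7 RPM in NT, 18.1 RPM in AS and 10.6 RPM in RC4, with −0.85 ± 0.26 (adjusted p = 0.00543, edgeR). RC4 was the lowest library for each. In RPM, though not on the log2 scale, the NT pair of Psmd5 differed by more than its RC4 value differed from the lower NT value. The other assembly factors were not called, with log2 fold changes of 0.25 ± 0.22 for Psmd9 and 0.20 ± 0.15 for Pomp.

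The lid subunits Psmd13 and Psmd6, the core subunit Psmb5 and Psme4 were not called either. Psmd13, a lid subunit, had 150.8 and 168.3 RPM in NT, 133.3 RPM in AS and 154.1 RPM in RC4 (log2 fold change −0.05 ± 0.15), so its RC4 value lay inside the NT pair. Psmd6 was at 149.9 and 171.7 RPM in NT, 123.9 RPM in AS and 160.1 RPM in RC4 (−0.01 ± 0.15), and Psme4 had 0.02 ± 0.15. Psmb5, the chymotrypsin-like protease subunit, had 42.9 and 33.3 RPM in NT, 34.9 RPM in AS and 38.3 RPM in RC4, with 0.01 ± 0.21. Of the beta subunits that carry protease sites, Psmb6 (0.66 ± 0.15) and Psmb7 (0.90 ± 0.15) were called and Psmb5 was not. RefSeq lists pseudogenes of Psma5, Psmb5, Psmb6 and Psmb7, and how reads shared with such copies were counted is not given in the sources used here.

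The size of this change depended on what the reads were scaled to. In the RC4 library the 10 most abundant genes took 20.9% of the counted reads, beside 6.61% to 7.17% in the other 3 libraries. Divided by the library total instead of median-ratio factors, the log2 fold changes of all genes had a median of −0.82, and those of the members −0.17, with 6 members called higher and 14 lower. All genes were then split into 1014 higher and 6601 lower, in place of 2984 and 2624. The members' median minus that of all genes was 0.65 under either scaling, and 34 of 37 members lay above the median of all genes under both. The 6 genes called higher with library totals were Psmd8, Psmc2, Adrm1, Psmd1, Psmd11 and Psmb4. Beyond these 6, the rises given above were thus rises relative to the typical gene of the RC4 library, and members summed to 0.644% of the RC4 reads beside 0.632% and 0.665% in NT.

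Genes around the proteasome were taken from lists of its regulators and partners. Of the 9 genes of the NRF1 and NRF2 axis, 6 rose and 2 fell at RC4. The small MAF partners of both factors rose most, Maff by 3.88, Mafk by 3.42 and Mafg by 1.77 on the log2 scale, and Bach1, a repressor at the same elements, rose by 2.38. Nfe2l2 was at 163.3 and 145.7 RPM in NT, 188.6 RPM in AS and 331.5 RPM in RC4 (log2 fold change 1.10 ± 0.15, adjusted p = 1.97e-08, edgeR). Nfe2l1 was at 252.3 and 222.0 RPM in NT, 248.6 RPM in AS and 139.3 RPM in RC4 (−0.77 ± 0.16, adjusted p = 5.99e-05, edgeR). RNA of the NRF1 gene was thus lower, and RNA of its protease gene Ddi2 higher, at 54.9 and 51.1 RPM in NT, 57.2 RPM in AS and 107.5 RPM in RC4 (1.02 ± 0.16). Keap1, which holds NRF2 in check, fell by 1.24 on the log2 scale.

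Of the immunoproteasome genes and other activators, 5 of 7 were tested and none rose. Psmb10 fell by 1.10 and Psme2, a subunit of the PA28 activator, fell by 0.53 on the log2 scale. All 4 chaperone genes of core assembly, Psmg1 to Psmg4, lay between −0.33 and −0.06 and were not called. Of 14 shuttle, deubiquitinase and p97 genes, 13 were tested, 7 rose and 2 fell. The ubiquitin shuttle gene Ubqln1 was at 49.0 and 51.8 RPM in NT, 63.0 RPM in AS and 344.0 RPM in RC4, a log2 fold change of 2.77 ± 0.15. Nploc4, a cofactor of p97, rose by 1.50, Txnl1, a proteasome-bound thioredoxin, by 1.46, the shuttle gene Rad23b by 1.20, the p97 gene Vcp by 0.51, Ufd1l by 0.48 and the small lid subunit gene Shfm1 by 0.46. Ubqln4 fell by 1.64 and Ube3c, a proteasome-bound ubiquitin ligase, by 0.96. With library totals, Nfe2l2 (0.29) and Ddi2 (0.21) were no longer called, Vcp turned to −0.30 and Ufd1l to −0.33, both not called, and Shfm1 turned to −0.35 and was called lower.

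One hour of arsenite alone left the members close to NT. No member was called in RNA-seq after AS, when 4.29% of all genes were higher and 1.22% lower by the same edgeR test, and the members' median log2 fold change was −0.08. Log2 fold changes of members ran from −0.38 (Psmd6) to 0.22 (Psmd3). Psma2 had 60.9 and 74.3 RPM in NT and 52.2 RPM in AS, and Psmd8 had 59.2 RPM in AS as given above. Each of these AS values lay outside its NT pair and was not called. At an unadjusted p under 0.05, 2 members were lower and none higher, and the share of all genes at that threshold is not given. In the list of regulators, Maff and Mafk had risen by this time.

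Newly made RNA of some proteasome genes rose as well. In the 4sU fraction at RC4, 15 of the 34 members tested were higher and none lower, beside 17.2% of all 8442 genes higher and 16.1% lower (edgeR, adjusted p under 0.05). The median log2 fold change of the members was 0.61. With library totals, which gave all genes a median of −0.33 and 918 higher against 2337 lower calls in place of 1448 against 1356, 10 members were higher and 1 lower. By role, 6 of 8 lid genes, 3 of 7 alpha genes, 2 of 5 tested beta genes, 2 of 3 tested scaffold genes, 1 of 6 ATPases and the PA200 gene rose, and none of the 4 assembly factors.

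The beta subunit gene Psmb3 changed most, with 3.37 and 3.45 RPM in 4sU NT, 12.0 RPM in 4sU AS and 14.4 RPM in 4sU RC4, a log2 fold change of 2.06 ± 0.45 at RC4. It rested on few reads. Psme4 was at 35.4 and 63.8 RPM in NT, 44.2 RPM in AS and 209.2 RPM in RC4 (2.05 ± 0.27, adjusted p = 8.42e-06, edgeR), beside the value of 0.02 in RNA-seq given above. The RC4 library of Psme4 stood far above the other 3. Psmd14, the deubiquitinase of the lid, was at 41.3 and 56.2 RPM in NT, 83.0 RPM in AS and 176.6 RPM in RC4 (1.84 ± 0.24). The lowest were Psmb1 (−0.51 ± 0.26), at 64.9 and 51.8 RPM in NT and 40.6 RPM in RC4, and Psmd10 (−0.30 ± 0.27), at 41.7 and 47.8 RPM in NT and 36.5 RPM in RC4. Neither was called.

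During AS itself, 4 members were already higher in the 4sU fraction and none lower, where 4.48% of all genes were higher and 3.29% lower. They were Psmb3 (1.80 ± 0.52), Psmd8 (0.92 ± 0.24), Psmb4 (0.91 ± 0.24) and Psmd3 (0.77 ± 0.22). Psmd8 was at 108.7 and 77.4 RPM in NT and 174.7 RPM in AS, above both. Psmb4 was at 346.8 and 241.3 RPM in NT and 549.2 RPM in AS. The smallest values were those of Psma2 (−0.23 ± 0.46) and Psme4 (−0.19 ± 0.32), whose AS values of 12.6 and 44.2 RPM lay between their NT libraries. The members' median in 4sU AS was 0.34, and 0.14 when scaled to library totals, by which all genes had a median of −0.17, with 262 higher and 578 lower in place of 378 and 278, and 2 members were higher.

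RNA in the flow-through, including any made in recovery before the label, rose at RC4 too. Of 34 members 13 were higher and none lower, beside 18.1% and 11.7% of all genes (edgeR). The median log2 fold change was 0.58. Psmc6, an ATPase, was at 104.1 and 121.2 RPM in Ft NT, 127.7 RPM in Ft AS and 329.0 RPM in Ft RC4 (1.54 ± 0.22, adjusted p = 2.06e-05, edgeR). Psmd1 was at 24.9 and 25.8 RPM in NT, 27.5 RPM in AS and 63.6 RPM in RC4 (1.33 ± 0.30). In both genes the RC4 library alone stood apart, with AS next to NT. Psmd10 was at 84.7 and 82.0 RPM in NT and 57.3 RPM in RC4 (−0.54 ± 0.26, not called), and Psma2 at 36.5 and 29.7 RPM in NT and 33.0 RPM in RC4 (−0.002 ± 0.38, not called). Cd68 was called higher in Ft RC4 too (1.91 ± 0.40), with 14.4 and 9.47 RPM in NT, 13.1 RPM in AS and 44.7 RPM in RC4, and its part in the result was not tested. Without Ft NT replicate 2 fewer members were called, and the share of all genes in that fit is not given. With library totals 5 members were called higher and 1 lower. All genes then split into 894 higher and 2469 lower, in place of 1530 and 989. In Ft AS no member was called, beside 1.03% of all genes higher and 0.794% lower, and values ran from −0.60 ± 0.32 for Psme4 to 0.37 ± 0.23 for Psmd8.

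**Figure D2:**
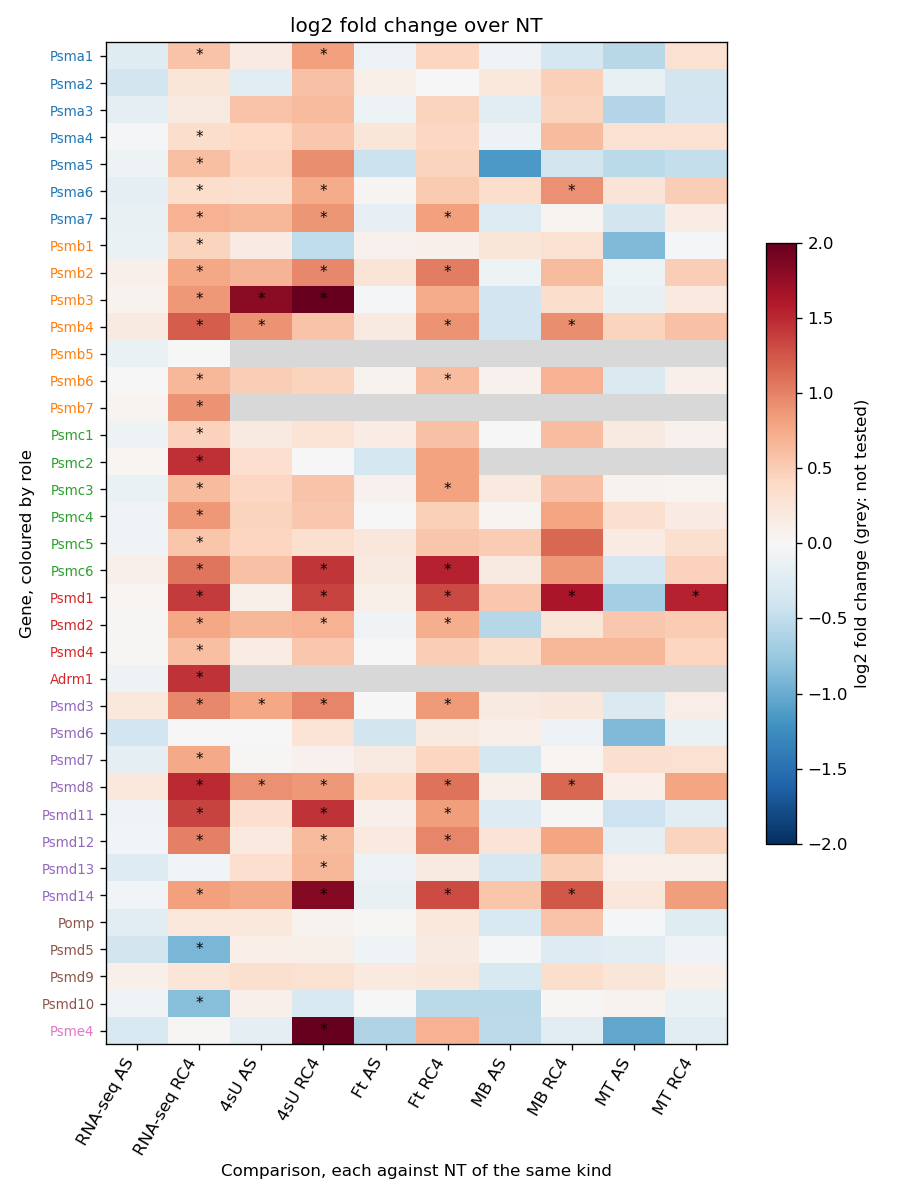
Log2 fold change of each gene (rows, names coloured by role) over NT in RNA-seq, the 4sU and Ft fractions and the cytoplasm of MB and MT cells (columns); asterisks mark adjusted p under 0.05, grey means not tested, and colours stop at 2. The RC4 columns are mostly red and the AS columns are mostly pale, with 27 asterisks for rises in RNA-seq RC4 and 15 in 4sU RC4.

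In untreated cells, proteasome RNA was richer in the flow-through than in newly made RNA. Of 34 members tested, 24 were higher in Ft than in 4sU and none lower, beside 26.5% of all genes higher and 28.9% lower (edgeR), and the members' median log2 ratio was 0.99 against −0.01 for all genes. With library totals 23 members were higher and 1 lower, and all genes split into 1709 higher and 2872 lower, in place of 2241 and 2436. All 7 alpha genes and all 5 tested beta genes were higher in Ft, but only 2 of 6 ATPases. The study adjusted such ratios for the number of uridines in a transcript, which affects labelling and capture. The ratios here were not adjusted for it, and its part in these differences was not tested. Psmb3 was at 3.37 and 3.45 RPM in 4sU and 29.5 and 26.5 RPM in Ft (3.02 ± 0.38). Psmb4 was at 346.8 and 241.3 RPM in 4sU and 1005 and 959.3 RPM in Ft (1.74 ± 0.20). Groups did not overlap in either gene. At the other end were Psmd5 (−0.32 ± 0.20), with 71.7 and 87.5 RPM in 4sU and 64.1 and 64.4 RPM in Ft, and Psmd14 (−0.28 ± 0.22), with 41.3 and 56.2 RPM in 4sU and 41.2 and 40.2 RPM in Ft, neither of them called.

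Total RNA by 3′READS followed the genes to 24 h. Fitted by group alone, no member of 33 tested was called at any time, and neither was any of all 7132 genes (0%), while the members' medians were 0.00 at AS, 0.11 at RC4, 0.12 at RC8, 0.12 at RC12 and −0.29 at RC24. The extremes in that fit followed replicate number. Psma6 had a log2 fold change of 1.31 ± 0.95 and Psma5 of −1.86 ± 1.91 at RC4. Psma6 was at 770.8, 1011 and 2772 RPM in the 3 NT libraries and 3770 RPM in RC4, and Psma5 at 73.1, 10.3 and 7.36 RPM in NT and 8.33 RPM in RC4. In each case NT replicate 4, with which the recovery libraries share a number, was the NT library farthest to the same side.

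With the replicate number as a block, 28 of the 33 members lay above NT at RC4. Their median was 0.33, beside −0.02 for all genes. In that fit 2 members were called higher and none lower, where 10.5% of all genes were higher and 7.32% lower (edgeR, adjusted p under 0.05). Psmd8 was at 167.0, 74.2 and 166.4 RPM in NT, 168.9, 124.6 and 132.6 RPM in AS, and 288.2, 219.7, 224.5 and 199.1 RPM at RC4, RC8, RC12 and RC24. Its RC4 value exceeded every NT and AS library, with a blocked log2 fold change of 1.02 ± 0.28 (adjusted p = 0.00814, edgeR). Psmc3, an ATPase, was at 588.9, 778.5 and 380.6 RPM in NT and 608.4 RPM at RC4, and its blocked log2 fold change was 0.69 ± 0.25 (adjusted p = 0.0477, edgeR). Its RC4 value lay above NT replicates 1 and 4 and below NT replicate 2.

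At later times the blocked medians were 0.19 at RC8, 0.27 at RC12 and −0.10 at RC24, and no member was called. Of all genes, 1.67% were higher and 2.12% lower at RC8, 0.351% and 0.715% at RC12, and 0.028% and 0.014% at RC24. At AS the blocked fit called no member, beside 1.46% and 0.238% of all genes, with a median of 0.03. In the 24 h library 26 of 33 members lay below NT in the blocked fit, after 29 of 33 had lain above it at 12 h. The median of all genes in that fit was −0.02 at 24 h and −0.014 at 12 h. The share of all genes on each side of NT is not given. Members summed to 0.958% of the reads in NT replicate 4, 1.001% in AS, 1.083% in RC4, 1.183% in RC8, 1.237% in RC12 and 0.917% in RC24. Each of these times was 1 library.

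**Figure D3:**
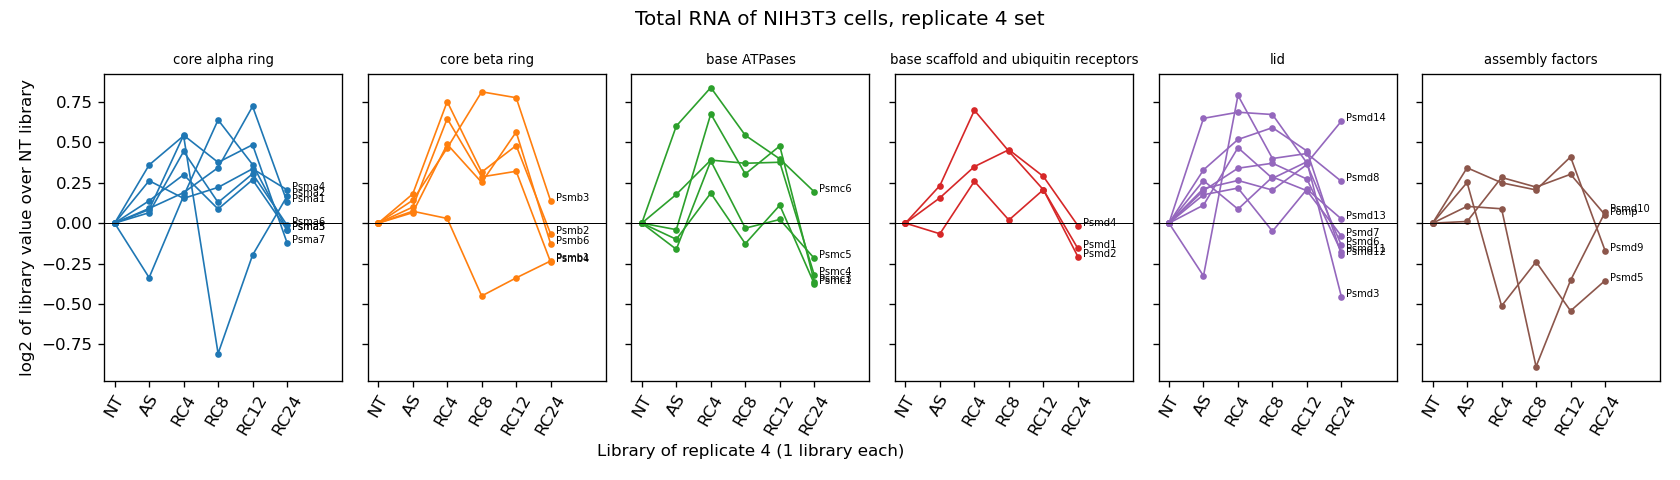
Total RNA of the replicate 4 set, with the log2 of each library over the NT library (y axis) along NT, AS, RC4, RC8, RC12 and RC24 (x axis), 1 library each and 1 line per gene in panels by role, without Psme4. Most lines lie above 0 at RC4, RC8 and RC12 and come back towards 0 at RC24, while Psma2 and Psmd10 dip at RC8 and Psmd5 from RC4 on.

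TIA1 carried less proteasome RNA than its input did. In NT, 7 of 32 members tested were lower in TIA1 than in input and none higher, and in AS 4 were lower, beside 4.14% and 3.47% of all genes lower and 4.08% and 1.82% higher (edgeR). The members' median log2 ratio was −1.27 in NT and −1.20 in AS, against 0.02 and 0.01 for all genes. With library totals 5 members were lower in NT and 1 in AS, and all genes split into 335 higher and 214 lower in NT, in place of 293 and 297, and 206 and 189 in AS, in place of 131 and 249. By the study's methods, TIA1 and input RNA were taken from the same lysate. The block used was the replicate number, which NT and AS libraries also shared. With it 21 members were lower and 1 higher in NT, and 20 lower and 1 higher in AS. Of all genes the blocked fit called 14.7% higher and 15.7% lower in NT, and 12.8% and 13.7% in AS.

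Psmb6 was lowest in AS, with 598.0 and 1216 RPM in input AS and 199.7 and 105.4 RPM in TIA1 AS (−2.57 ± 0.58, adjusted p = 0.0377, edgeR without block). In NT it had 518.7 and 1371 RPM in input and 179.8 and 208.4 RPM in TIA1 (−2.28 ± 0.57). Psmd12 was lowest in NT, at 67.2 and 117.8 RPM in input and 17.2 and 9.51 RPM in TIA1 (−2.80 ± 0.58). Psma1 came next in AS at −1.93 ± 0.62, with 30.2 and 53.3 RPM in input and 14.9 and 6.92 RPM in TIA1. It was not called without the block and was called lower with it (−1.95 ± 0.56, adjusted p = 0.0171, edgeR). Its ratio in NT was 0.31 ± 0.59. TIA1 and input libraries did not overlap in AS for Psmb6, Psmd12 or Psma1.

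Psmd11 went the other way. This lid gene was at 165.8 and 188.1 RPM in input NT and 379.4 and 583.2 RPM in TIA1 NT, and at 180.3 and 256.5 RPM in input AS and 419.5 and 695.4 RPM in TIA1 AS. Every TIA1 library lay above every input library. The blocked log2 ratio was 1.41 ± 0.29 in NT (adjusted p = 0.00163, edgeR) and 1.33 ± 0.28 in AS (adjusted p = 0.00281), whereas without the block it was 1.44 ± 0.43 (adjusted p = 0.0621) and 1.35 ± 0.43 (adjusted p = 0.0858). Nearly all its TIA1 reads, 98.7% to 100.0%, ended at the distal site printed above with the run of Ts, and so did 99.0% to 100.0% of its input reads. Runs of Ts were not counted in the other members, and the part of this run in the ratio was not tested. Psme4 (0.11 ± 0.71 in AS) and Psmb3 (0.46 ± 0.59 in NT) had the next highest ratios and were not called. Without the block, leaving out any 1 of the 8 libraries left fewer members, or none, called lower in NT. The number called in AS moved too. Medians in those fits ran from −1.398 to −0.935 in NT and from −1.285 to −1.099 in AS, and the share of all genes called is not given. With arsenite alone, input RNA showed no member called, beside 0.0139% of all genes higher and 0% lower, and values from −0.35 ± 0.46 for Pomp to 0.72 ± 0.60 for Psma1.

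**Figure D4:**
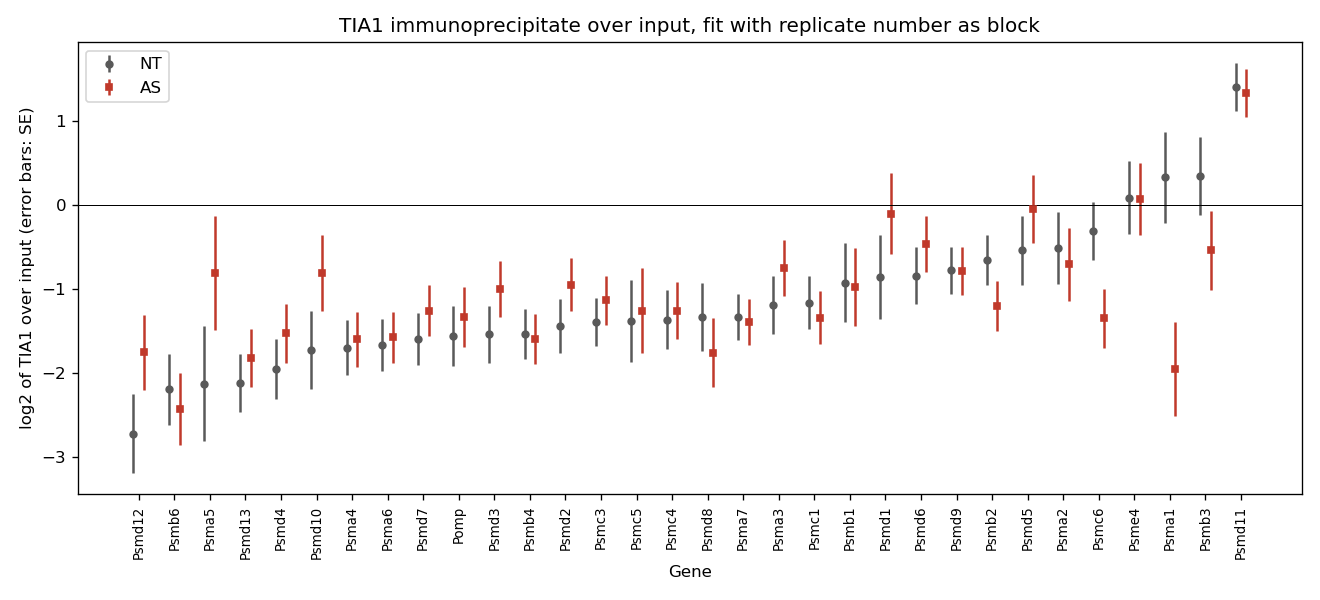
Log2 ratio of TIA1 immunoprecipitate over input for each tested gene (x axis, sorted by the NT ratio) in NT (circles) and AS (squares), from the fit with the replicate number as a block; error bars are SE. Nearly all genes lie below 0 and Psmd11 stands at 1.41 in NT and 1.33 in AS.

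In the cytoplasm of C2C12 myoblasts, 5 members rose at RC4. Of 33 tested, 5 were higher and none lower, beside 4.06% of all 7159 genes higher and 2.7% lower (edgeR), and the median log2 fold change was 0.48. Psmd1 was at 20.0 and 13.7 RPM in NT, 24.6 RPM in AS and 52.4 RPM in RC4 (1.63 ± 0.38, adjusted p = 0.0279, edgeR). Psmd14 was at 57.4 and 39.3 RPM in NT, 71.3 RPM in AS and 114.0 RPM in RC4 (1.24 ± 0.31). Psmd8 was at 485.4 and 415.5 RPM in NT, 484.7 RPM in AS and 1003 RPM in RC4 (1.16 ± 0.23), and Psmb4 and Psma6 were also called. In all of these the RC4 library was the highest of the 4. At the low end, Psma5 was at 38.7 and 85.7 RPM in NT and 48.4 RPM in RC4 (−0.36 ± 0.48) and Psma1 at 87.4 and 147.2 RPM in NT and 91.5 RPM in RC4 (−0.36 ± 0.34). The NT pair of these genes was widely spread. More members were called when either MB NT library was left out, and leaving out any 1 library gave medians from 0.41 to 0.52. With library totals 0 were called, without a filter also 0, and with DESeq2 3. The share of all genes called is not given for fits without a filter, with DESeq2 or without 1 library. With library totals all genes split into 181 higher and 551 lower, in place of 291 and 193.

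In myotubes only Psmd1 was called at RC4, at 28.2 and 26.2 RPM in NT, 16.9 RPM in AS and 79.1 RPM in RC4 (1.54 ± 0.33, adjusted p = 0.024, edgeR), beside 3.23% of all genes higher and 1.37% lower. It was no longer called when either MT NT library was left out. More members were called when either MB NT library was left out, and the share of all genes in those fits is not given. The median of the 33 members was 0.15, and −0.03 with library totals, by which all genes split into 181 higher and 162 lower, in place of 231 and 98. Psmd14 had 56.0 and 65.3 RPM in NT and 108.7 RPM in RC4 (0.84 ± 0.30, not called), and Psma5 (−0.47 ± 0.49) and Psma3 (−0.39 ± 0.28) were lowest. The median of the differences between cell states, MT minus MB, was −0.33, but no member passed the test of that difference, beside 0% of all genes higher and 0.014% lower. The differences ran from −0.84 ± 0.51 for Psma2 and −0.83 ± 0.46 for Psmc5 to 0.66 ± 0.47 for Psma1.

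After AS alone no member was called in MB (0.419% of all genes higher, 0% lower) or MT (0.587% and 0.0279%). Values in MB ran from −1.16 ± 0.49 for Psma5 to 0.56 ± 0.31 for Psmd14, and in MT from −1.05 ± 0.37 for Psme4 to 0.67 ± 0.28 for Psmd4. The Psme4 libraries in MT were at 67.5 and 55.3 RPM in NT and 29.7 RPM in AS. This AS value lay well below the pair, and its adjusted p was 0.259 (edgeR).

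Between untreated myotubes and myoblasts, members were called no more often than all genes in either direction. In total RNA of untreated cells, 10 of 35 members tested were higher in MT than in MB and 7 lower, beside 30.2% of all 9183 genes in each direction (edgeR), and the median was 0.08. Fewer cells of a type and less RNA per cell cannot be told apart in such bulk samples. Of the ATPases 4 of 6 were higher and none lower. Psmc2 was at 1.97 and 3.92 RPM in MB and 7.77 and 8.56 RPM in MT (1.42 ± 0.40), on few reads. Psmd8 was at 207.0 and 227.3 RPM in MB and 413.3 and 408.8 RPM in MT (0.92 ± 0.10, adjusted p = 2.86e-09, edgeR).

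The chaperones of the base parted. Psmd10 was at 44.95 and 59.1 RPM in MB and 93.3 and 98.7 RPM in MT (0.87 ± 0.15), and Psmd5 at 47.6 and 54.9 RPM in MB and 18.4 and 26.2 RPM in MT (−1.19 ± 0.19, adjusted p = 1.58e-06, edgeR). Psma1 was at 226.4 and 199.3 RPM in MB and 120.7 and 151.4 RPM in MT (−0.64 ± 0.12). None of these groups overlapped. With library totals 6 members were higher and 12 lower, when all genes had a median of −0.15 and split into 2299 higher and 3349 lower, in place of 2773 and 2777. Of the regulators, Nfe2l1 was higher in MT by a log2 fold change of 2.34 ± 0.15.

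Changes in 3′ end use were measured as the share of the distal site among reads of the 2 most used last-exon sites of a gene. For Psmb5, Psmc3 and Psmd12, 97.2% to 99.99% of reads ended upstream of the last exon of the annotation used, so these could not be tested this way. In the 4sU fraction, 4 of 13 members tested shifted to the proximal site at RC4 and 1 to the distal site, by Fisher's exact test with p under 0.05 and a change over 5 percentage points, beside 26% and 3.04% of all 4315 genes. In total RNA of replicate 4, 1 of 11 shifted each way, beside 12.7% and 2.1% of 2189 genes. Such a test compares reads of these libraries, not the conditions.

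Psmc6 went from 48.5% distal (95% Wilson interval 44.1 to 52.9) in the summed 4sU NT libraries to 36.5% (32.8 to 40.3) at RC4, with both NT libraries close, at 48.7% and 48.4%. Psmb1 went from 86.3% (82.3 to 89.4) to 75.5% (68.0 to 81.8), with NT libraries at 84.4% and 87.6%. The RC4 shares of both lay below both NT libraries. Psmd14 (45.5% at RC4) and Psmd9 (57.2%) were also called shortened, but their RC4 shares lay between the NT libraries, which held 39.8% and 62.4% for Psmd14 and 53.1% and 71.3% for Psmd9. In total RNA of replicate 4, Psmb1 was not called, with 90.6% in NT and 87.9% at RC4. The total RNA NT libraries of replicates 1 and 2 held 20.1% and 68.5% for this gene. Intervals cover counting error only.

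Psmd8 was called shifted to its distal site in both comparisons. In 4sU RNA its distal share was 66.0% (61.8 to 69.9) in NT and 75% (71.2 to 78.4) at RC4, where the NT libraries held 59.4% and 71.4%. In total RNA of replicate 4 it went from 39.8% (33.7 to 46.3) to 48.6% (43.8 to 53.5), Fisher's exact p = 0.0369. The NT libraries of replicates 1 and 2 held 51.2% and 26.1%, on either side of that RC4 share. In other RC4 libraries, for which no test was run, the distal share was 66.3% in Ft beside 60.0% and 70.0% in Ft NT, 68.0% in MB cytoplasm beside 67.9% and 66.6% in NT, and 75.3% in MT cytoplasm beside 71.0% and 64.9% in NT. The Ft share lay between its NT libraries and the MB share next to them. The distal site adds 342 nt to the 3′UTR. Psma3 shifted the other way in total RNA, from 21.0% (15.5 to 27.7) to 10.9% (7.5 to 15.6). Its distal site adds 1364 nt, and its 4sU shares of 28.9% and 23.4% were not called different. The distal share of Psmd11 was 51.0% in total RNA of NT replicate 4, against 96.8% and 100.0% in the other NT libraries of total RNA.

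**Figure D5:**
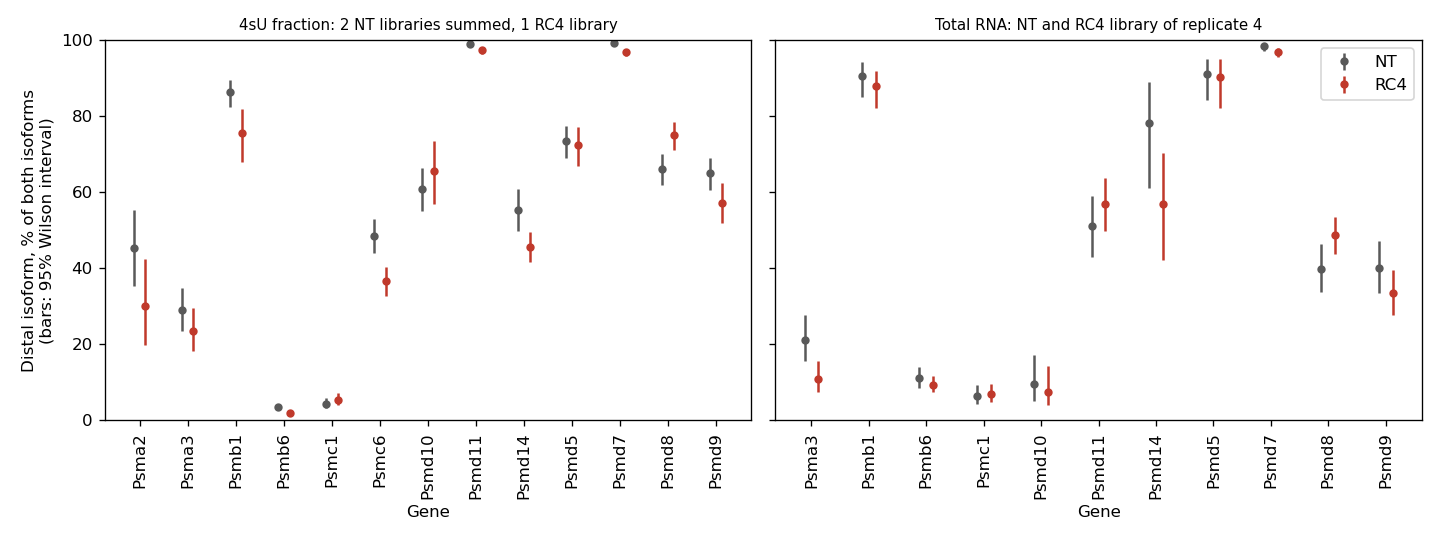
Share of the distal isoform (y axis, percent of reads of both isoforms) in NT (grey) and RC4 (red) for each gene with a testable pair (x axis), in the 4sU fraction and in total RNA of replicate 4; bars are 95% Wilson intervals. Psmc6 and Psmb1 fall in 4sU RNA, and Psmd8 rises in both panels, from 66.0% to 75% and from 39.8% to 48.6%.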

How the data were processed

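The members and all gene lists were chosen with earlier results of these data known. Per the labels and the study's methods, the authors trimmed reads with Cutadapt, mapped 3′READS reads to mm9 with bowtie2 (mapping quality of at least 10, at least 2 nongenomic Ts) and RNA-seq reads with STAR, and deposited raw read counts per PAS or per coding sequence. Values below 5 reads are not listed. RNA-seq rows whose names had turned into dates (at most 19 rows and 0.257% of reads in a library) were left out.

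PAS positions within 24 nt were joined across libraries and assigned to protein-coding genes of GENCODE vM1 on NCBIM37 (the mm9 assembly); 1085 of 83916 clusters lay in several genes and were left out, none of them of a member, but some of Cdh15, Ddi2 and Mafg. Each experiment was fitted on all genes with more than 5 reads in every library with edgeR 4.0.16 (quasi-likelihood test, RLE scaling, as in the study's median ratio method), in R 4.3.3, without a replicate block. NT pooled the 0 h and 4 h untreated labels, as the study does. Adjusted p is over all genes. SE is the absolute log2 fold change divided by the root of F. Counts were also scaled to TMM and library totals, left unfiltered, fitted with DESeq2 1.42.0, restricted to last-exon PASs and fitted with a block. Intervals were computed with statsmodels 0.14.6 and Fisher's test with scipy 1.17.1. The fits were tested on simulated data.

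Named genes were members by role: the 3 largest and 3 smallest RNA-seq changes at RC4, members called there against the direction of most, members not tested, the 2 largest and 2 smallest changes in other comparisons, and Nfe2l1, Nfe2l2, Ddi2 and listed genes passing the RNA-seq RC4 test. Members named beyond this rule, those called in small counts, those not called in RNA-seq and the isoform genes among them, were chosen after their values were seen. Replicate numbers of NIH3T3 total RNA paired the samples (same-number correlations of deviations of 0.896, 0.909 and 0.898). By the study's methods, TIA1 and input RNA were taken from the same lysate. Their same-number correlations were 0.452 in NT and 0.49 in AS. Input NT and input AS, which are separate lysates, correlated at 0.649, so these values cannot show a shared lysate. No replicate pair agreed within sampling noise. The sequence of 1 promoter stretch is not reported here.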

Additional observations from a re-analysis of the deposited data

How the results depend on the processing

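Of 653 alternative values, 560 kept their direction and their call or count. The rest follow, and their causes were not tested unless the setting shows them. Library totals move all genes when a few genes take more reads. They gave, for the members, 6 higher, 14 lower and a median of −0.17 in RNA-seq RC4; 2 higher and 0.14 in 4sU AS; 1 lower and 0.32 in 4sU RC4; 5 higher, 1 lower and 0.15 in Ft RC4; 1 lower and 0.80 in Ft over 4sU; 1 lower in TIA1 AS; 0 higher and 0.12 in MB RC4; −0.027 in MT RC4; −0.14 for MT minus MB; and 6 higher, 12 lower and −0.066 in MT over MB. TMM gave 1 lower in TIA1 AS. Without a filter, more genes were tested: Ft over 4sU 1.03; TIA1 NT 1 higher and 12 lower, AS 8 lower; MB RC4 0 higher and 0.58; MT RC4 0 higher; MT over MB 0.12. DESeq2 gave 1 higher in 4sU AS, 1 higher and 13 lower in TIA1 NT, 1 higher and 11 lower in TIA1 AS, 3 higher in MB RC4, 0 in MT RC4 and 4 lower in MT over MB. Last-exon PASs alone gave 0.41 in 4sU AS. NT of the same time label alone, with no test, gave 0.29 in 4sU AS, 0.78 in 4sU RC4, −0.023 in Ft AS, 0.70 in Ft RC4 and 0.41 in MB RC4.

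The replicate block gave 2 higher in total RNA RC4, 21 lower and 1 higher in TIA1 NT, and 20 lower and 1 higher in TIA1 AS; in MT over MB, where numbers did not pair (correlation 0.05), it changed no count by over 1.5 times. Leaving out 1 library gave medians of 0.28 to 0.40 in 4sU AS, 0.53 to 0.78 in 4sU RC4, 0.91 to 1.03 in Ft over 4sU, −0.014 to 0.081 in Ft AS (below 0 without Ft NT replicate 2), 0.54 to 0.71 in Ft RC4 (8 to 17 higher), 0.41 to 0.52 in MB RC4 (4 to 15 higher), −0.12 to 0.012 in MT AS (above 0 without MT NT replicate 1; 0 to 2 higher, 0 to 3 lower), −0.37 to −0.26 for MT minus MB (0 to 1 lower), 0.033 to 0.096 in MT over MB (2 to 8 lower, 2 without MT replicate 3) and −1.40 to −0.94 in TIA1 NT (0 to 3 lower). It gave 0 to 1 higher and 0 to 2 lower in MB AS, 0 to 7 higher in MT RC4 and 0 to 5 lower in TIA1 AS. RNA-seq without 1 NT library left no residual degrees of freedom, so those are values with no test. The share of all genes called is not given for fits without 1 library, without a filter or with DESeq2. Member counts from those fits cannot be set beside it. The isoform and motif counts kept within 1.5 times under more than 20 reads and the shorter window.

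Most treated groups held 1 library, and Adrm1, Psmb5, Psmb7 and Psmc2 had too few 3′READS reads to be tested in most of those fits.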
